A study of Rattus norvegicus with 15 samples.

Results

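The enzymes that oxidise foreign chemicals (phase I) and couple them to glutathione, sulfate or glucuronic acid (phase II) were followed in rat lung through 48 genes of 22250 in the expression table. They were chosen by name, as cytochromes P450 (Cyp), flavin monooxygenases (Fmo), carboxylesterases (Ces), soluble and membrane glutathione transferases (Gst and Mgst), glucuronosyltransferases (Ugt) and sulfotransferases (Sult), without Cyp1a1, Cyp1b1 and Cyp51. Names of 132 genes matched, and 48 of these had an FPKM (fragments relative to transcript length and to the library's mapped total) of at least 1 in at least 5 of the 15 libraries. The 48 were 22 Cyp, 6 Fmo, 1 Ces, 13 Gst, 3 Mgst, 1 Ugt and 2 Sult genes, and they are called the enzyme genes below.

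RNA was sequenced from lungs of wild-type rats, with 5 libraries in each of 3 groups. Control rats were normal, COPD rats had been given lipopolysaccharide (LPS, a bacterial cell wall component) and smoke by the trachea as a model of chronic obstructive pulmonary disease, and WDD rats had been given the same exposure and, by gavage, Wendan Decoction, an herbal mixture of traditional Chinese medicine. Whether every library stands for its own animal is not stated in the labels, and p-values therefore reflect only variation among these samples. The sources used here give no strain, age, dose or duration.

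Phase I enzymes introduce or uncover a reactive group, and phase II enzymes attach a water-soluble one so that the product can be exported. P450s sit in the endoplasmic reticulum and receive electrons from the reductase Por, whereas flavin monooxygenases take them from NADPH directly. In lung these enzymes are concentrated in club cells of the airway and in alveolar epithelium, where they clear inhaled compounds and also turn some of them into toxic products.

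Several measures of the libraries moved with the groups and touch every result that follows. Mitochondrially encoded genes held 5.19% to 9.62% of the FPKM sum in control libraries, 33.7% to 65.0% in COPD libraries and 19.1% to 26.5% in WDD libraries, so the same FPKM stands for a different share of nuclear transcripts in each group. The median log2 fold change of all 13172 tested genes was -0.81 in COPD against control and 0.54 in WDD against COPD. With each library scaled to its FPKM sum without mitochondrial genes it was -0.65 and 0.26, and after median-of-ratios scaling, which gives the libraries a common typical gene, it was -0.05 and 0.03. Long housekeeping transcripts stood lower relative to short ones in COPD and in WDD libraries, by a difference of log2 medians of -3.87 and -3.91 against -2.02 in controls. Of 12 tested neutrophil markers 11 rose in COPD, and their summed FPKM was 154 to 251 in control, 15124 to 50241 in COPD and 109 to 694 in WDD libraries. Markers of alveolar type 1 cells fell in COPD for 12 of 12 tested genes and those of alveolar type 2 cells for 8 of 11. Those of smooth muscle fell for 7 of 7, endothelium 7 of 10, ciliated cells 7 of 11, fibroblasts 6 of 10 and macrophages 5 of 10. Of all tested genes 66.4% fell and 8.23% rose. After median-of-ratios scaling 11 type 1 markers fell, while 7 type 2 markers fell and 3 rose, where 32.3% of all fell. Hepatocyte markers, included since liver is the richest source of these enzymes, summed to between 5.83 and 27.9 FPKM in every library. The part that each of these differences plays in the enzyme results was not tested, and in bulk tissue fewer cells of a type and less RNA per cell cannot be told apart.

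COPD 5 and COPD 1 stood apart from the other COPD libraries in several enzyme genes, and WDD 4 and WDD 5 were more alike than any other pair within a group. Some of the results that rest on them are also given without them, or with WDD 4 and WDD 5 averaged. Relative depth, read from the smallest steps of low values, lay between 0.877 and 1.10, so that depth was similar throughout.

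Promoters of 5 enzyme genes are shown. Of these, 3 had the largest falls in COPD (Fmo2, Cyp2f4 and Cyp2e1). Cyp4f18 was the P450 with the largest rise, and is shown at the one of its 2 listed starts that holds a motif. The pi-class glutathione transferase Gstp1 did not pass the test. Each runs from 250 bases before to 50 bases after the transcription start listed by RefSeq on the rat build GRCr8, 5′ to 3′ along the gene. Capitals mark the core of the xenobiotic response element bound by the aryl hydrocarbon receptor (GCGTG) and of the antioxidant response element bound by Nrf2 (TGACNNNGC), searched on both strands.
Fmo2, chr13:77777485-77777784, minus strand: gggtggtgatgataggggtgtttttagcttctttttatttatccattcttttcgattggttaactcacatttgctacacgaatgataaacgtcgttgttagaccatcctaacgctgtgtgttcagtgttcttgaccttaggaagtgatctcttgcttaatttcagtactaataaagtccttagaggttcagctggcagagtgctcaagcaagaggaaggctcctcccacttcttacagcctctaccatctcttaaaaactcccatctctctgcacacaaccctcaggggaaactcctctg
Cyp2f4, chr1:91543518-91543817, plus strand: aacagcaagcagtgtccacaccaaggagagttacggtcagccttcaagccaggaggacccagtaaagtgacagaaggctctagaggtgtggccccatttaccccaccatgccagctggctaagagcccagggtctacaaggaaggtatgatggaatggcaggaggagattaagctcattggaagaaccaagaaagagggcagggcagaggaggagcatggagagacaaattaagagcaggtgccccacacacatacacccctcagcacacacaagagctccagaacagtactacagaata
Cyp2e1, chr1:205269717-205270016, plus strand: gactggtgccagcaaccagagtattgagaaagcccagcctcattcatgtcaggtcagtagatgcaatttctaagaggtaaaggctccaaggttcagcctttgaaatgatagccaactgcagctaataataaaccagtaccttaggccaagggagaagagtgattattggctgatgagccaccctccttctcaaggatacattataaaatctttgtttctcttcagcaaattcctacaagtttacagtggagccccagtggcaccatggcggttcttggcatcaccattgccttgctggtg
Cyp4f18, chr16:17811108-17811407, plus strand: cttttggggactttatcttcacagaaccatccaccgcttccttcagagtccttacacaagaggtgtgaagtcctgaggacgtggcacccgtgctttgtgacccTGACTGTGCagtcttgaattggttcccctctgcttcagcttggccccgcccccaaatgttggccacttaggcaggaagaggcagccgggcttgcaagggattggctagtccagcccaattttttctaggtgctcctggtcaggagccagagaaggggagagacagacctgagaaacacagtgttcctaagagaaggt
Gstp1, chr1:210769656-210769955, minus strand: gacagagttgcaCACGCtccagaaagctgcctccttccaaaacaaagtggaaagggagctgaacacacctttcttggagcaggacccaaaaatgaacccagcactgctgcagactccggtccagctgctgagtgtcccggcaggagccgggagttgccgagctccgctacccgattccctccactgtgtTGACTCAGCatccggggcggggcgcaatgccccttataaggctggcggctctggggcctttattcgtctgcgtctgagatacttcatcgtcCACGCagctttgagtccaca

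The Gstp1 promoter held 2 matches to GCGTG, both on the opposite strand, and 1 match to TGACNNNGC at position -61 from the start. Those of Fmo2, Cyp2f4 and Cyp2e1 held neither. The promoter of Mgst1, which like Gstp1 did not pass the test in COPD, also held neither. RefSeq promoters were matched for 41 of the 48 enzyme genes, with 43 starts in all. GCGTG was present in 17 of the 43 (39.5%) and in 29.7% of all 33469 promoters of this length, and TGACNNNGC in 9 of the 43 (20.9%) and in 12.1% of all. Of the 17 genes with GCGTG, 15 fell in COPD and 2 did not pass the test, where 85.4% of all the enzyme genes and 66.4% of all tested genes fell. Of the 9 with TGACNNNGC, 7 fell, 1 rose and 1 did not pass. Both counts are near the share of all enzyme genes. A match is a stretch of letters and not a measured site.

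In COPD lungs 41 of the 48 enzyme genes (85.4%) were lower than in controls, against 66.4% of all tested genes, and 3 (6.25%) were higher, against 8.23% of all (limma on log2(FPKM + 1), adjusted p under 0.05). The median log2 fold change was -1.53 for the enzyme genes and -0.81 for all genes. After median-of-ratios scaling 28 enzyme genes (58.3%) were lower, against 32.3% of all, and 6 (12.5%) were higher, against 30.2% of all, with medians of -0.78 and -0.05. The falls of Cyp4f6, Cyp2c23, Cyp2j4, Cyp2j10, Cyp46a1, Fmo5, Gsta1, Gstm1, Gstm4, Gstm7, Gstt1, Mgst2 and Sult1a1 no longer passed the test after that scaling. In 34 genes every COPD library lay below every control library, and in 2 every COPD library lay above. These shares describe genes that passed the filter on low values, and 3 of them (Cyp3a9, Cyp39a1 and Fmo6) were under an FPKM of 1 in every COPD library. Without the filter 55 of 110 matching names were lower, where 10073 of 18300 tested genes were.

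**Figure D1:**
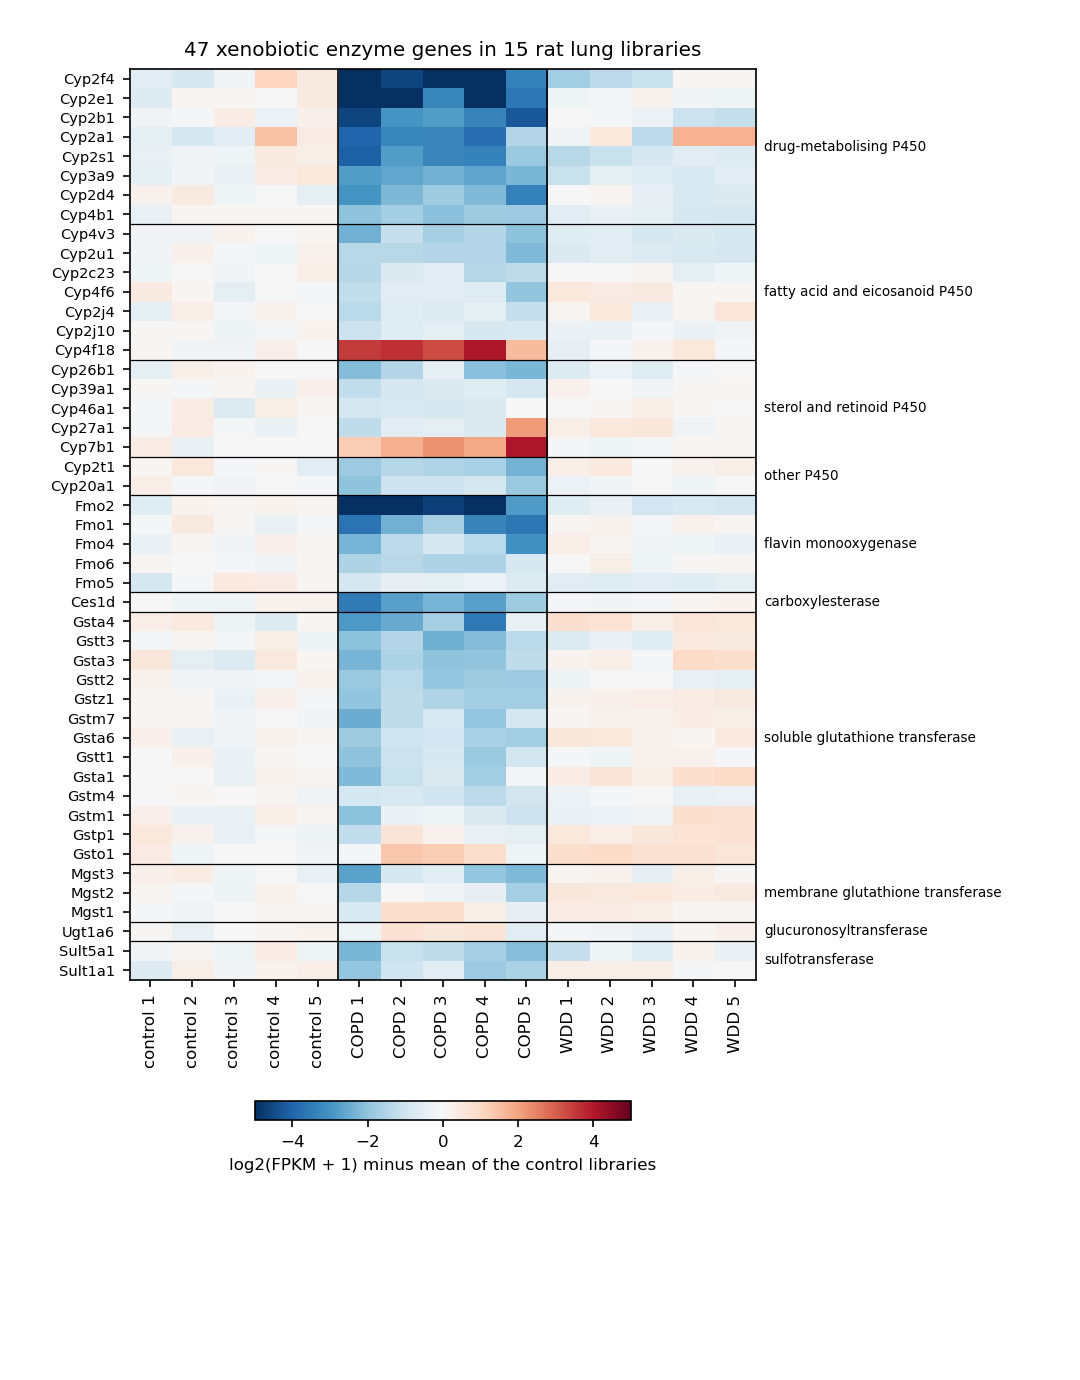
Each row is 1 of 47 enzyme genes and each column 1 library; colour gives log2(FPKM + 1) minus the mean of the 5 control libraries, with colours saturated at 5 log2 units in either direction, and rows are grouped by enzyme role. The drug-metabolising P450s and flavin monooxygenases are blue in the COPD columns and mostly pale in the WDD columns, while Cyp4f18 and Cyp7b1 are red in COPD only.

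The P450s that act on drugs and inhaled chemicals made the most uniform group. All 8 of them fell in COPD, with log2 fold changes from -4.70 to -1.88 and a median of -3.12, and all 8 also passed after median-of-ratios scaling, with a median of -2.46. No other role with more than 3 genes had every member pass under both scalings. The P450 roles were chosen with earlier results of these data known, so this uniformity is a description and not separate evidence.

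Cyp2b1, a lung P450 that oxidises many drugs and is one of a nearly identical pair with Cyp2b2, stood at 238, 250.1, 347, 219.9 and 322 FPKM in control libraries 1 to 5, at 10.4, 34.3, 37.8, 26.1 and 13.6 in COPD libraries and at 271, 256, 219.8, 127 and 118 in WDD libraries. Cyp4b1, which activates furans and aromatic amines, stood at 241, 335, 324, 331 and 328 FPKM in control, 76.1, 94.6, 72.0, 90.7 and 86.9 in COPD and 215, 246, 219.5, 175 and 171 in WDD libraries. In both genes the highest COPD library was below the lowest control and the lowest WDD library. The log2 fold change in COPD was -3.58 ± 0.33 (SE) for Cyp2b1 (adjusted p = 8.92e-08, limma) and -1.88 ± 0.14 for Cyp4b1 (adjusted p = 1.58e-08). Cyp4b1 thus fell least of the 8, and its COPD libraries were close together.

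Cyp2e1, which oxidises ethanol and small solvents, stood at 29.7, 51.1, 49.4, 47.5 and 64.8 FPKM in control libraries, at 0.0693, 0.458, 4.03, 0.231 and 2.90 in COPD libraries and at 40.9, 45.8, 55.3, 43.3 and 40.8 in WDD libraries. Cyp2f4, the club cell enzyme that activates naphthalene, stood at 30.9, 25.4, 39.5, 94.7 and 60.7 FPKM in control, 0.296, 0.896, 0.246, 0.235 and 3.46 in COPD and 12.6, 17.7, 20.3, 46.6 and 47.3 in WDD libraries. COPD 3 and COPD 5 were the highest for Cyp2e1 and COPD 5 alone for Cyp2f4, and neither gene overlapped between COPD and another group. The fold changes of -4.54 ± 0.36 and -4.70 ± 0.44 are on the log2(FPKM + 1) scale, which understates changes of genes that end below an FPKM of 1.

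Cyp2s1, an epithelial P450 induced by dioxin, stood at 20.9, 24.4, 23.7, 38.4 and 34.0 FPKM in control, 0.675, 3.14, 1.93, 1.77 and 6.86 in COPD and 9.87, 12.2, 14.5, 18.9 and 17.5 in WDD libraries. Cyp3a9, a steroid and drug hydroxylase, stood at 4.09, 5.26, 4.57, 8.24 and 9.04 FPKM in control, 0, 0.141, 0.311, 0.118 and 0.432 in COPD and 2.24, 3.93, 3.55, 3.09 and 3.73 in WDD libraries. For these genes the groups formed 3 separate bands, with WDD between COPD and control. The COPD log2 fold changes were -3.08 ± 0.32 (adjusted p = 2.97e-07, limma) and -2.55 ± 0.20 (adjusted p = 1.72e-08). Cyp2d4, a 2D-family P450, ranged from 12.3 to 23.4 FPKM in control and from 0.701 to 4.27 in COPD libraries and fell by 2.53 ± 0.28. Cyp2a1, a steroid hydroxylase with close relatives in the genome, is described with the airway genes below.

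Other P450s act on the body's own lipids, and they moved less evenly. Of 7 that act mainly on fatty acids and eicosanoids, 6 fell and 1 rose, with a median of -0.99, and after median-of-ratios scaling 2 fell and 1 rose. Cyp4f6, an omega-hydroxylase and the most abundant of them, ranged from 21.0 to 39.4 FPKM in control and from 6.56 to 19.3 in COPD libraries. Its log2 fold change of -0.99 ± 0.24 (adjusted p = 0.00151, limma) came to -0.11 after median-of-ratios scaling (adjusted p = 0.669). Cyp4v3, a fatty acid hydroxylase, fell by 1.75 ± 0.19 and passed under both scalings.

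Cyp4f18, which hydroxylates leukotriene B4 and is known from neutrophils, stood at 1.43, 0.995, 1.04, 1.73 and 1.25 FPKM in control libraries, at 25.0, 27.8, 20.9, 36.3 and 5.84 in COPD libraries and at 0.724, 1.16, 1.66, 2.30 and 1.11 in WDD libraries. It rose in COPD by 3.21 ± 0.34 (adjusted p = 3.62e-07, limma), and by 3.62 ± 0.19 without COPD 5, its lowest COPD library. The neutrophil markers moved with it. Csf3r, the receptor of the neutrophil growth factor G-CSF, stood at 159, 301, 234, 339 and 223 FPKM in COPD libraries 1 to 5 and at 4.22 to 11.7 in control and WDD libraries. S100a8, an abundant calcium-binding protein of neutrophils, stood at 4747, 15681, 10144, 8617 and 3076 FPKM in the same COPD libraries. The markers did not share 1 order of libraries: COPD 5 was lowest for Cyp4f18 and S100a8 and within the range of the others for Csf3r. It was highest for 3 other listed markers, with Retnlg at 691 FPKM against 6.96 to 49.2 in the other COPD libraries, Camp at 280.0 against 19.7 to 36.8 and Ngp at 349 against 0 to 0.427. The part of neutrophil content in the rise was not tested.

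Sterol and retinoid P450s split in direction: of 5 genes 3 fell, 1 rose and 1 did not pass. Cyp7b1, which hydroxylates oxysterols, stood at 2.43, 1.06, 1.68, 1.64 and 1.62 FPKM in control, 5.18, 8.21, 11.7, 8.98 and 43.1 in COPD and 1.48, 1.28, 1.45, 1.86 and 1.88 in WDD libraries. It rose in COPD by 2.25 ± 0.36 (adjusted p = 3.32e-05, limma), and by 1.80 ± 0.19 without COPD 5, which was by far its highest library. Cyp27a1, the mitochondrial sterol 27-hydroxylase, stood at 20.9, 28.9, 20.7, 17.1 and 21.5 FPKM in control, 8.40, 14.6, 15.5, 12.6 and 96.8 in COPD and 26.6, 31.7, 32.0, 19.0 and 23.0 in WDD libraries. For Cyp27a1 4 COPD libraries were below all controls and COPD 5 above all of them. Its log2 fold change was -0.17 ± 0.44 with COPD 5 (adjusted p = 0.738) and -0.74 ± 0.19 without it (adjusted p = 0.00215).

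Cyp26b1, which inactivates retinoic acid, ranged from 3.37 to 6.53 FPKM in control and from 0.271 to 3.37 in COPD libraries and fell by 1.69 ± 0.28. The remaining P450s, Cyp2t1 and Cyp20a1, fell by 1.74 ± 0.20 and 1.35 ± 0.20 and passed under both scalings.

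Flavin monooxygenases, which oxidise nitrogen and sulfur atoms of drugs, held the gene with the largest fall of all 48 on the log2(FPKM + 1) scale. Fmo2, the main member in lung, stood at 580.3, 997, 970.0, 996 and 979 FPKM in control libraries, at 7.67, 16.0, 34.2, 9.54 and 123 in COPD libraries and at 581, 685, 455, 518 and 486 in WDD libraries. Control 1 was well below the other controls and COPD 5 well above the other COPD libraries, yet the groups did not overlap. The log2 fold change in COPD was -5.25 ± 0.51, and -5.86 ± 0.31 without COPD 5 (adjusted p = 6.17e-10, limma). Group means went from 904 to 38.1 FPKM for Fmo2, from 50.2 to 1.03 for Cyp2f4 and from 48.5 to 1.54 for Cyp2e1. In proportion to control, the means of Cyp2f4 and Cyp2e1 thus fell further than that of Fmo2.

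Fmo1, an amine oxidase of the same family, stood at 135, 198, 152, 112 and 139.6 FPKM in control, 10.2, 26.6, 45.1, 13.3 and 10.8 in COPD and 161, 166, 139, 169 and 161 in WDD libraries. The COPD libraries of Fmo1 lay below every control and every WDD library, and it fell by 2.95 ± 0.31 (adjusted p = 3.38e-07, limma). COPD 5 was the highest COPD library for Fmo2 but among the lowest for Fmo1. Fmo4 and Fmo6 fell by 1.76 ± 0.32 and 1.36 ± 0.15. Fmo5 ranged from 4.02 to 12.1 FPKM in control and from 4.11 to 6.56 in COPD libraries. Its log2 fold change of -0.54 ± 0.21 (adjusted p = 0.0305, limma) turned positive, at 0.28, after median-of-ratios scaling (adjusted p = 0.22). The Fmo5 call was also lost without control 3, control 4, control 5 or COPD 1.

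The single carboxylesterase that passed the filter, Ces1d, which cleaves ester drugs and lipids, was the second most abundant enzyme gene in control lung. It stood at 356, 314, 315, 418 and 422 FPKM in control, 31.2, 53.7, 70.9, 54.1 and 104 in COPD and 351, 332, 348, 395 and 413 in WDD libraries. The control and WDD libraries shared 1 range and the COPD libraries lay far below it. It fell by 2.61 ± 0.23 in COPD (adjusted p = 6.06e-08, limma).

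**Figure D2:**
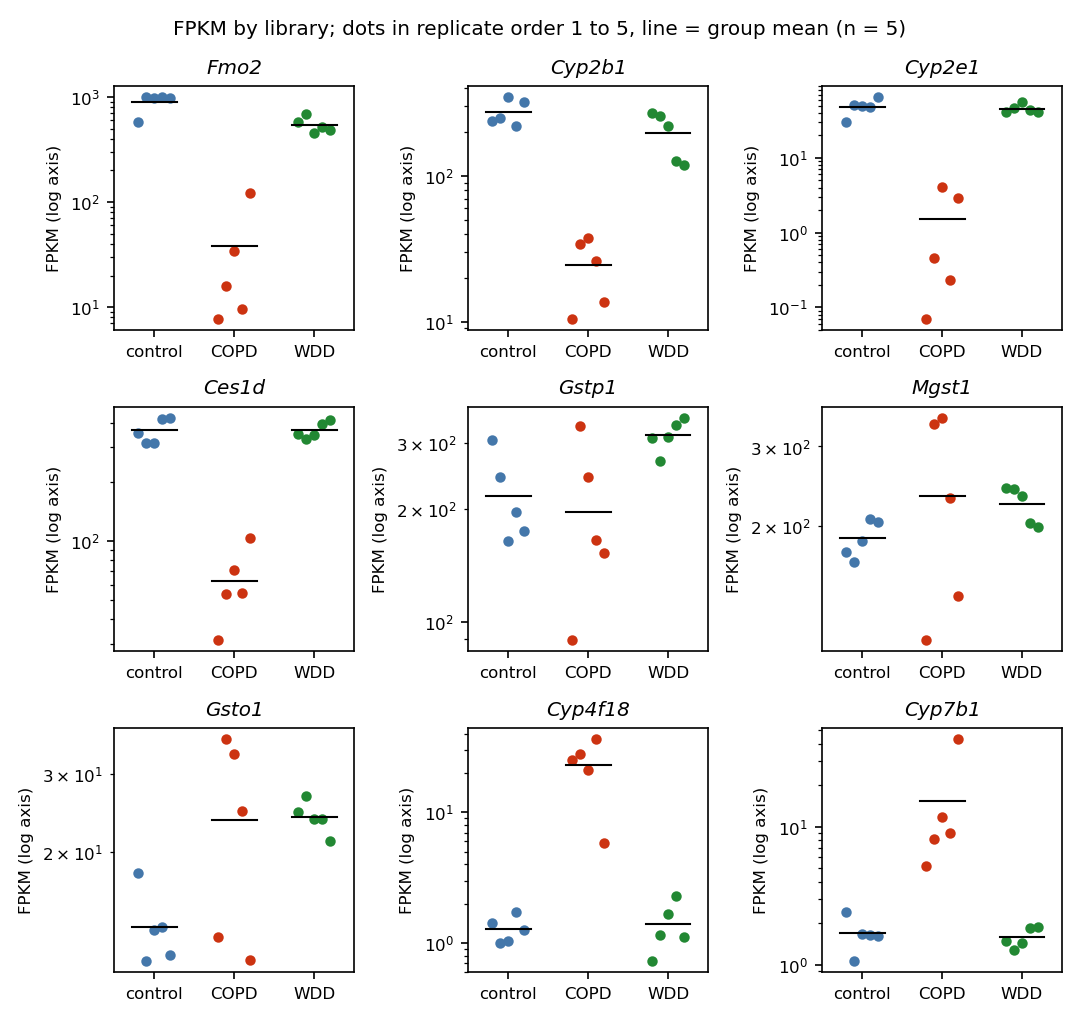
FPKM on a log axis for 9 enzyme genes in the control, COPD and WDD libraries; dots are libraries 1 to 5 from left to right and lines are group means. Fmo2, Cyp2b1, Cyp2e1 and Ces1d lie lower in all COPD libraries, Gstp1, Mgst1 and Gsto1 overlap between COPD and control, and Cyp4f18 and Cyp7b1 lie higher in all COPD libraries.

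Glutathione transferases, which couple reactive molecules to glutathione, held the largest share of the enzyme transcripts in COPD lung. Of 13 soluble members 11 fell, 1 rose and 1 did not pass, with a median of -1.42, and after median-of-ratios scaling 6 fell and 2 rose, with a median of -0.55. Gsta4, which conjugates the lipid peroxidation product 4-hydroxynonenal, stood at 81.2, 92.4, 54.2, 41.3 and 68.8 FPKM in control, 8.07, 10.4, 19.8, 4.61 and 49.8 in COPD and 115, 105, 82.4, 100.2 and 93.1 in WDD libraries. COPD 5 reached the control range and the other COPD libraries did not. Gsta4 fell by 2.20 ± 0.42 (adjusted p = 0.000182, limma), the largest fall of the family on the log2(FPKM + 1) scale in deposited values.

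Gstz1, which also works in tyrosine breakdown, ranged from 22.0 to 33.7 FPKM in control and from 6.40 to 11.1 in COPD libraries and fell by 1.66 ± 0.15. Gsta1, an alpha-class enzyme, stood at 132, 133, 100.4, 152 and 144 FPKM in control, 27.3, 59.9, 80.0, 38.4 and 124 in COPD and 168, 208, 167, 238 and 252 in WDD libraries, and fell by 1.17 ± 0.30 in COPD, with -0.25 after median-of-ratios scaling (adjusted p = 0.489, limma). Gstm7, a mu-class enzyme, ranged from 93.3 to 116 FPKM in control and from 18.0 to 61.0 in COPD libraries and fell by 1.46 ± 0.25, with -0.55 after that scaling (adjusted p = 0.0549, limma). Gstm1, of the same class, ranged from 77.1 to 125 FPKM in control and from 23.5 to 86.5 in COPD libraries. Its log2 fold change was -0.87 ± 0.32 (adjusted p = 0.0222, limma), and the call was lost without control 4 or COPD 1. After that scaling its log2 fold change turned positive, at 0.05 (adjusted p = 0.886). Reads of the alpha and mu clusters can be divided between near copies in ways that the sources used here do not describe.

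Gstp1, the pi-class enzyme of epithelium, stood at 306, 244, 164, 196 and 175 FPKM in control libraries, at 89.3, 333, 244, 165 and 153 in COPD libraries and at 309, 269, 312, 336 and 349.5 in WDD libraries. COPD 2 was above every control, and COPD 1 and COPD 5 were below every control. The log2 fold change in COPD was -0.24 ± 0.27 (adjusted p = 0.442, limma), and after median-of-ratios scaling it was 0.70 (adjusted p = 0.0142). Gsto1, an omega-class enzyme that reduces dehydroascorbate, stood at 18.0, 11.4, 13.4, 13.6 and 11.8 FPKM in control, 12.9, 35.9, 33.3, 24.8 and 11.5 in COPD and 24.6, 26.7, 23.8, 23.8 and 21.2 in WDD libraries. Its rise of 0.63 ± 0.26 (adjusted p = 0.0359) was lost when any 1 of 7 libraries was left out (controls 2 to 5 and COPD 2 to 4). After median-of-ratios scaling it was 1.51 (adjusted p = 1.21e-05, limma).

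The membrane transferase Mgst1, a detoxifying enzyme of the endoplasmic reticulum and outer mitochondrial membrane, stood at 175, 166, 185, 207 and 204 FPKM in control, 111, 337, 347, 230.5 and 139 in COPD and 242, 241, 233, 203 and 198 in WDD libraries. COPD 1 and COPD 5 were below all controls and the other 3 COPD libraries above them. The log2 fold change was 0.18 ± 0.26 (adjusted p = 0.546, limma), 0.68 ± 0.14 without COPD 1 and COPD 5 (adjusted p = 0.000514) and 1.11 after median-of-ratios scaling. Mgst2, which can form leukotriene C4, fell by 0.75 ± 0.26 (adjusted p = 0.0162, limma). Its log2 fold change turned positive, at 0.16, after median-of-ratios scaling and was -0.57 without COPD 1 (adjusted p = 0.0516). Mgst3, of the same group, fell by 1.64 ± 0.33 and passed under both scalings.

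Sulfotransferases fell and the glucuronosyltransferase did not pass. Sult1a1, which sulfates phenols, stood at 178, 337, 250, 318 and 347 FPKM in control, 72.0, 137, 188, 77.4 and 91.4 in COPD and 343, 342, 352, 263 and 274 in WDD libraries. COPD 3 overlapped the lowest control and the other COPD libraries lay below. Sult1a1 fell by 1.39 ± 0.25 (adjusted p = 9.77e-05, limma), with -0.46 after median-of-ratios scaling (adjusted p = 0.0724). Sult5a1 fell by 1.69 ± 0.26.

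Ugt1a6, which glucuronidates simple phenols and shares exons with other Ugt1a transcripts, stood at 3.55, 2.36, 3.33, 3.75 and 3.89 FPKM in control, 2.75, 6.13, 5.41, 5.78 and 2.03 in COPD and 3.17, 3.0, 2.47, 3.60 and 4.14 in WDD libraries. COPD 2, 3 and 4 were above every control and COPD 1 and COPD 5 were not. The log2 fold change was 0.24 ± 0.22 (adjusted p = 0.343, limma), 0.43 ± 0.19 without COPD 5 (adjusted p = 0.0486) and 0.96 after median-of-ratios scaling.

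**Figure D3:**
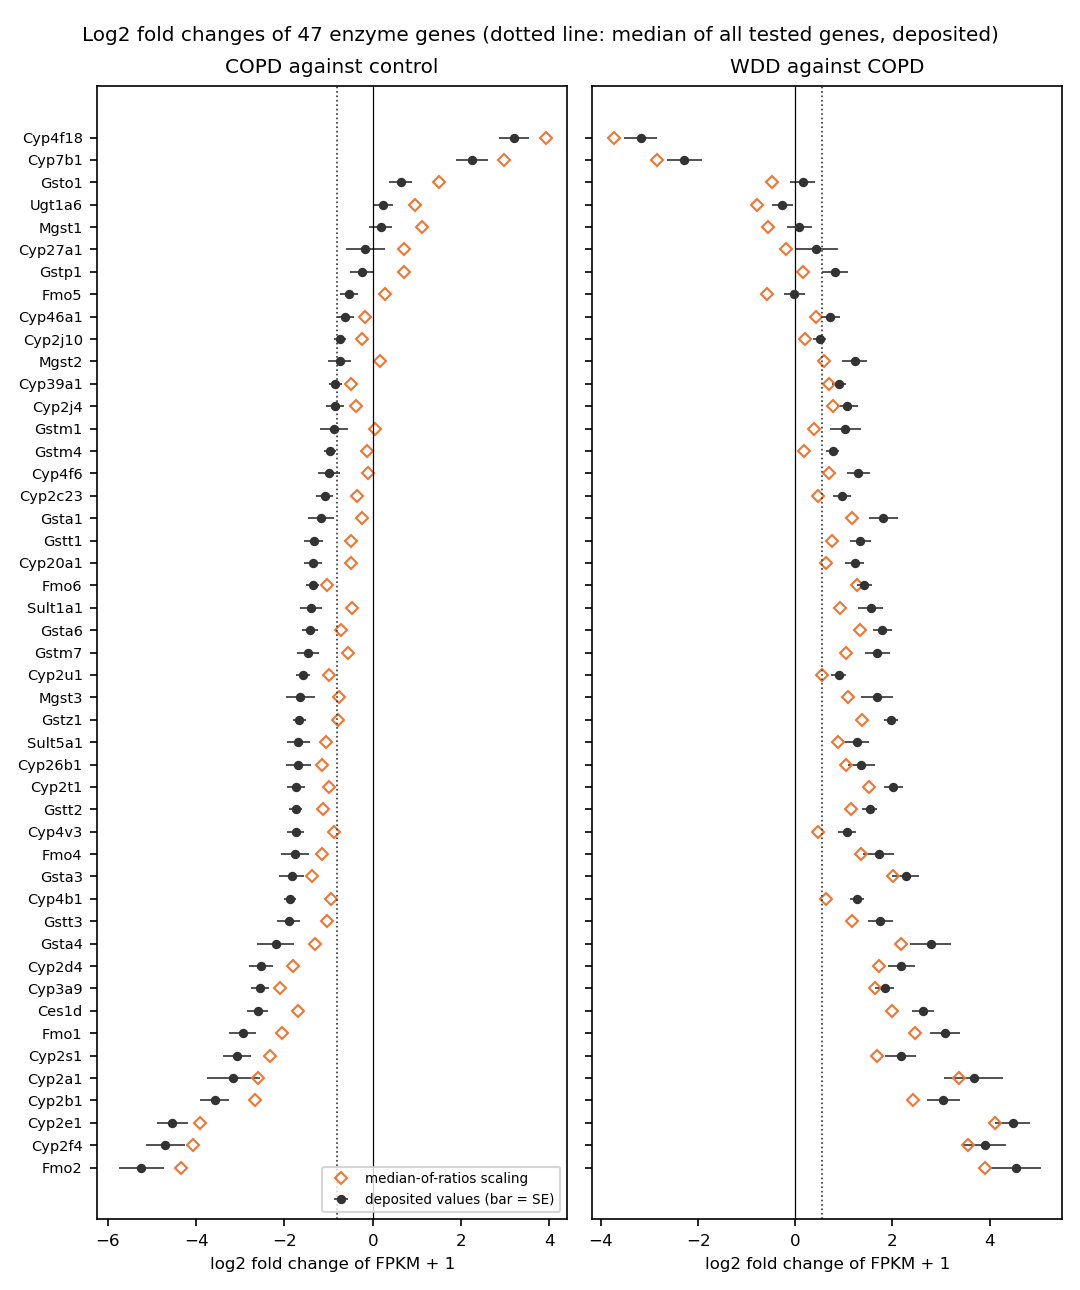
Log2 fold changes of 47 enzyme genes in COPD against control (left) and WDD against COPD (right); filled dots are deposited values with SE, open diamonds are median-of-ratios values and the dotted line is the median of all tested genes. Values run from -5.25 for Fmo2 to 3.21 for Cyp4f18 on the left, and the same genes sit at opposite sides of 0 on the right; both panels use the same COPD libraries.

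The make-up of the enzyme pool was computed within each library, so that it does not depend on scaling between libraries. It does not remove differences between long and short transcripts. After median-of-ratios scaling short housekeeping transcripts rose in COPD for 44 of 44 tested genes, and long ones fell for 25 of 32. The part of transcript length in the shares was not tested. The 48 genes summed to 3699 ± 318 FPKM in control, 1200.5 ± 384 in COPD and 3472 ± 136 in WDD libraries (mean ± SD, n = 5). Flavin monooxygenases held 24.0%, 33.1%, 33.8%, 30.4% and 30.4% of that sum in control libraries, 4.18%, 3.69%, 6.17%, 3.41% and 12.8% in COPD libraries and 23.3%, 25.9%, 20.0%, 22.3% and 21.1% in WDD libraries. Soluble glutathione transferases held 16.5% to 27.3% in control, 32.6% to 40.0% in COPD and 25.0% to 32.9% in WDD libraries. Membrane glutathione transferases held 6.59% to 8.31%, 12.4% to 26.9% and 8.64% to 10% in the same order. Every COPD library had a smaller share of flavin monooxygenases and a larger share of both transferase groups than any control library. A larger share is not a larger amount. Mean sums of soluble transferases were 739.6 FPKM in control and 437 in COPD libraries, and those of membrane transferases 269 and 277. After median-of-ratios scaling they were 553 and 610.0 for soluble and 201 and 377 for membrane transferases.

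The P450 share in COPD libraries overlapped that of both other groups, while every WDD library lay below every control, at 24.4% ± 1.5 in control, 20.1% ± 4.59 in COPD and 19.5% ± 2.12 in WDD libraries. Ces1d held 9.89% ± 1.29, 5.29% ± 1.67 and 10.6% ± 1.12. The most abundant enzyme gene was Fmo2 in control and WDD lungs and Mgst1 in COPD lungs, followed there by Gstp1. Mgst1 held 5.08% ± 0.448 of the sum in control and 19.2% ± 5.11 in COPD libraries, while Fmo2 held 24.3% ± 3.55 and 2.99% ± 3.69.

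**Figure D4:**
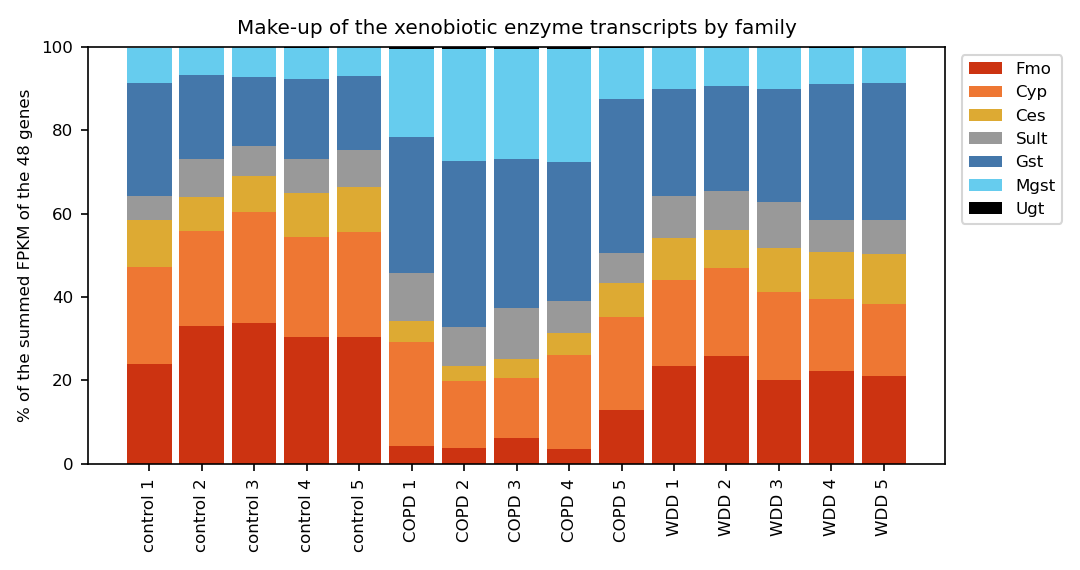
Stacked bars give the percent of the summed FPKM of the 48 enzyme genes held by each family in each library. In the 5 COPD bars the Fmo segment is small (3.41% to 12.8%) and the Gst and Mgst segments are large; in the WDD bars the Fmo segment spans 20.0% to 25.9%.

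WDD lungs were compared with COPD lungs to see which enzyme genes differed when the decoction accompanied the exposure. In this comparison 41 of 48 (85.4%) were higher, against 57.1% of all tested genes, and 2 (4.17%) were lower, against 6.63% of all. After median-of-ratios scaling 36 (75%) were higher, against 23.3% of all, and 5 (10.4%) were lower, against 21.4% of all. The median log2 fold change was 1.39 for the enzyme genes and 0.54 for all genes, and 0.98 and 0.03 after scaling. The comparison shares its COPD libraries with the one above, so opposite signs in them are not separate evidence.

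All 8 drug-metabolising P450s rose, from 1.27 for Cyp4b1 to 4.48 for Cyp2e1, and passed under both scalings. Of the flavin monooxygenases 5 of 6 rose. Fmo2 rose by 4.54 ± 0.51 (adjusted p = 3.05e-06, limma) and Fmo1 by 3.08 ± 0.31, and Fmo5 had a value of -0.02 ± 0.21 (adjusted p = 0.928). Ces1d rose by 2.63 ± 0.23, and 12 of 13 soluble glutathione transferases rose, with Gsta4 at 2.79 ± 0.42 and Gstz1 at 1.97 ± 0.15. Gstp1 rose by 0.81 ± 0.27 (adjusted p = 0.0167), with 0.16 after median-of-ratios scaling and 0.40 without COPD 1 and COPD 5 (adjusted p = 0.125). Cyp4f18 and Cyp7b1, the lower pair, fell by 3.18 ± 0.34 and 2.29 ± 0.36. Cyp27a1, Fmo5, Gsto1, Mgst1 and Ugt1a6 did not pass in deposited values. After median-of-ratios scaling Fmo5 (-0.58, adjusted p = 0.0217, limma), Mgst1 (-0.57, adjusted p = 0.0228) and Ugt1a6 (-0.79, adjusted p = 0.00352) were lower. Without COPD 5, in deposited values, Cyp27a1 stood at 1.00 ± 0.19 (adjusted p = 0.000295) and Ugt1a6 at -0.46 ± 0.19 (adjusted p = 0.0412).

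WDD lungs were then compared with control lungs. Here 6 of 48 enzyme genes (12.5%) were lower, against 31% of all tested genes, and 1 (2.08%) was higher, against 6.35% of all. After median-of-ratios scaling 1 (2.08%) was lower, against 16.9% of all, and 9 (18.8%) were higher, against 15.9% of all. The median log2 fold change was 0.03 for the enzyme genes and -0.23 for all genes. Not passing this test does not show that the levels were equal.

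The 6 lower genes were Cyp2s1 (-0.91 ± 0.32, adjusted p = 0.0333, limma), Cyp3a9 (-0.71 ± 0.20), Cyp2u1 (-0.70 ± 0.16), Cyp4v3 (-0.69 ± 0.19), Cyp4b1 (-0.60 ± 0.14) and Fmo5 (-0.56 ± 0.21, adjusted p = 0.0474). Cyp2u1, a long-chain fatty acid hydroxylase, ranged from 4.0 to 5.86 FPKM in control and from 2.28 to 3.02 in WDD libraries, without overlap. Cyp4v3 ranged from 30.8 to 38.8 FPKM in control and from 19.4 to 23.2 in WDD libraries, and it alone of the 6 also passed after median-of-ratios scaling (-0.42, adjusted p = 0.0276). The Fmo5 call was lost when any 1 library other than control 1, COPD 1 or COPD 5 was left out, and the Cyp2s1 call without control 4, control 5 or any 1 of WDD 1 to 3. Gsto1 was the higher gene (0.79 ± 0.26, adjusted p = 0.0246), with every WDD library above every control, and its call was lost without control 2, control 5 or WDD 2. After median-of-ratios scaling it stood at 1.04 (adjusted p = 0.00134, limma). The 9 genes higher after that scaling were 5 soluble and 2 membrane glutathione transferases and 2 P450s.

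Genes of the airway epithelium differed between libraries of the same group. Cyp2a1 stood at 10.1, 7.54, 9.88, 41.6 and 20.0 FPKM in control libraries, at 0, 0.61, 0.562, 0.11 and 4.71 in COPD libraries and at 12.8, 21.4, 5.23, 50.8 and 51.7 in WDD libraries. It fell by 3.16 ± 0.60 in COPD (adjusted p = 0.000167, limma) and rose by 3.67 ± 0.60 in WDD against COPD. Scgb1a1, the secretoglobin that defines club cells, stood at 16718, 11170.1, 10674, 14286 and 13834 FPKM in control, 1928, 12836, 10721, 12878 and 14252 in COPD and 19377, 16735, 21696, 36057 and 37506 in WDD libraries. In 4 of 5 COPD libraries Scgb1a1 thus lay within the control range, while Cyp2f4 and Cyp2a1 were below every control in all 5. Scgb1a1 does not stand for all club cell markers, since 6 others fell, as given below.

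The COPD log2 fold change of Scgb1a1 was -0.60 ± 0.46 (adjusted p = 0.247, limma) in deposited values, 0.33 after median-of-ratios scaling and -2.08 after quantile normalisation. Over the club cell list 6 of 10 tested genes fell and 1 rose, where 66.4% and 8.23% of all tested genes did. Those that fell were Scgb3a2 (-2.81), Krt15 (-2.07), Lypd2 (-1.62), Upk1b (-1.56), Aldh1a7 (-1.52) and Scgb1c1 (-0.95). Bpifa1 rose (1.23), and Scgb1a1, Scgb3a1 and Bpifb1 did not pass. The list's summed FPKM, most of it from Scgb1a1, was 10938 to 17129 in control, 1946 to 14492 in COPD and 17085 to 38651 in WDD libraries. WDD 4 and WDD 5 were the highest WDD libraries for Scgb1a1, Cyp2f4 and Cyp2a1. They were also the highest for Gstm1, at 176 and 170.1 FPKM against 79.3 to 88.2 in the other WDD libraries, and for Gstt3, at 35.2 and 34.3 against 15.1 to 19.3. Cyp2b1 was lowest in the same libraries, at 127 and 118 FPKM against 219.8 to 271. With WDD 4 and WDD 5 averaged into 1 library, 41 enzyme genes were higher and 2 lower in WDD against COPD.

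**Figure D5:**
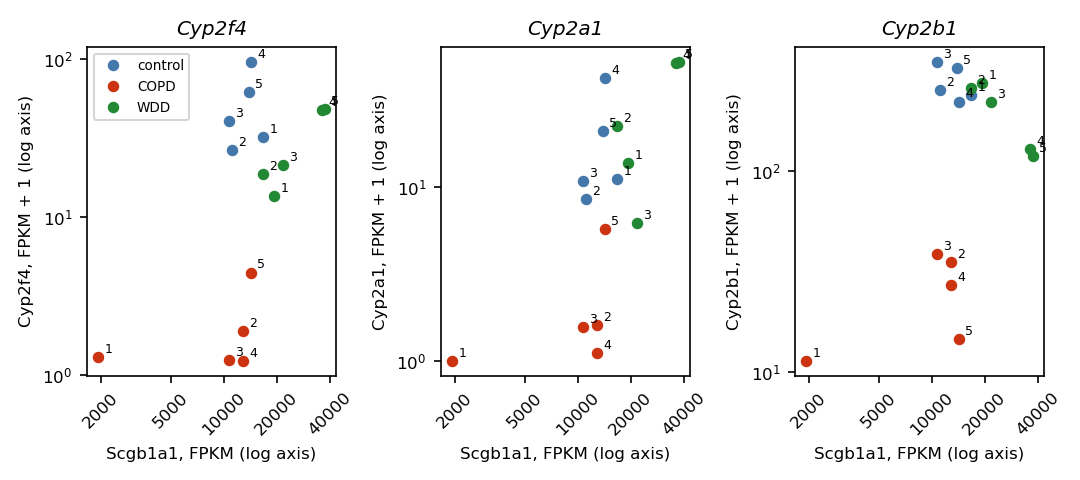
FPKM + 1 of Cyp2f4, Cyp2a1 and Cyp2b1 against FPKM of the club cell marker Scgb1a1, both on log axes, for each library (numbers are replicates). COPD libraries 2 to 5 overlap the controls along the Scgb1a1 axis and lie below them along each P450 axis; WDD 4 and 5 lie high for Cyp2f4 and Cyp2a1 and low for Cyp2b1 among WDD libraries.

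The P450s depend on genes of electron supply and haem handling. Of 16 listed genes for reductases, cytochrome b5 and haem handling 12 fell and 1 rose, where 66.4% of all tested genes fell and 8.23% rose, and after median-of-ratios scaling 4 fell and 5 rose, against 32.3% and 30.2% of all. Por, the reductase that all microsomal P450s depend on, stood at 131, 172, 154, 143 and 139 FPKM in control, 25.4, 56.9, 43.6, 40.2 and 62.9 in COPD and 141, 122, 133, 113 and 124 in WDD libraries. It fell by 1.73 ± 0.19 in COPD (adjusted p = 5.8e-07, limma), rose by 1.51 ± 0.19 in WDD against COPD and had no overlap between COPD and either group. Cyb5r2 and Cyb5r1, reductases of cytochrome b5 type, fell by 1.76 ± 0.17 and 1.75 ± 0.19. Hmox1, which degrades haem and is induced by oxidative stress, rose by 1.38 ± 0.14.

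Transcription factors that control these genes were counted next. Of 22 tested, 14 fell and 2 rose in COPD, near the 66.4% and 8.23% of all tested genes. After median-of-ratios scaling 7 fell and 6 rose, where 32.3% and 30.2% of all did. In WDD against COPD 8 rose and 3 fell, where 57.1% and 6.63% of all did. After median-of-ratios scaling 3 rose and 6 fell, where 23.3% and 21.4% of all did. The median log2 fold change was 0.31 before that scaling and -0.24 after it. Rxra, the partner of many nuclear receptors, fell by 2.11 ± 0.27, Arnt, the partner of the aryl hydrocarbon receptor, by 1.70 ± 0.19, Pparg by 1.55 ± 0.18 and the glucocorticoid receptor gene Nr3c1 by 1.23 ± 0.15. Pparg rose in WDD against COPD by 1.46 ± 0.18 (adjusted p = 5.77e-06, limma). Arnt had a mean of 25.2 FPKM in control, 6.98 in COPD and 9.5 in WDD lungs, with a log2 fold change of -1.30 in WDD against control (adjusted p = 0.000126). Rxra likewise had means of 26.8, 5.17 and 8.53 FPKM, with a log2 fold change of -1.45 in WDD against control (adjusted p = 0.00065). The long housekeeping list was also lower in WDD against control for 31 of 32 genes, and the part of transcript length in the Arnt and Rxra values was not tested.

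Further regulators were picked after their values were seen. Ahr, the aryl hydrocarbon receptor gene, had means of 37.3 FPKM in control, 12.8 in COPD and 25.0 in WDD lungs and fell in COPD by 1.58. Nfe2l2, which encodes Nrf2, had means of 74.9, 65.1 and 65.1 FPKM (adjusted p = 0.198 in COPD against control, limma). Cebpb, an acute-phase regulator, had means of 91.4, 579 and 249.8 FPKM and rose in COPD by 2.63.

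Other enzymes of phase I include aldehyde dehydrogenases and epoxide hydrolases. Of 36 tested, 27 fell and 2 rose in COPD, where 66.4% of all tested genes fell, and 18 fell and 8 rose after median-of-ratios scaling, where 32.3% of all fell. In WDD against COPD 27 rose and 1 fell, where 57.1% of all rose. After median-of-ratios scaling 22 rose and 5 fell, where 23.3% and 21.4% of all did. Aldh1a1, a retinal and aldehyde dehydrogenase, fell by 3.11 ± 0.30, Ephx1, the microsomal epoxide hydrolase, by 3.09 ± 0.24, Aox1, an aldehyde oxidase, by 2.56 ± 0.24 and Aldh9a1 by 1.96 ± 0.15. Of 19 other phase II and cofactor genes 8 fell and 2 rose in COPD, where 66.4% and 8.23% of all did. After median-of-ratios scaling 4 fell and 8 rose, where 32.3% and 30.2% of all did. Under both scalings a smaller share of this list fell than of all tested genes. In WDD against COPD 9 rose and 2 fell, where 57.1% and 6.63% of all did. After that scaling 2 rose and 6 fell, where 23.3% and 21.4% of all did. Gclm, a subunit of the enzyme that makes glutathione's precursor, fell by 1.53 ± 0.16, As3mt, which methylates arsenic, by 1.48 ± 0.19 and Slc35d1, a nucleotide-sugar carrier, by 1.14 ± 0.13. Ggt1, which breaks down extracellular glutathione, rose by 1.89 ± 0.20.

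Transporters that move drugs and conjugates across membranes (phase III) fell in COPD for 15 of 16 tested genes, where 66.4% of all tested genes fell. After median-of-ratios scaling 10 fell and 1 rose, where 32.3% and 30.2% of all did. The peptide and drug carrier Slc15a2 fell by 3.23 ± 0.21, the conjugate exporter Abcc1 by 2.56 ± 0.19, the organic anion carrier Slco2b1 by 2.09 ± 0.19 and Slc22a18 by 2.03 ± 0.18. In WDD against COPD 12 of 16 rose, where 57.1% of all rose. After median-of-ratios scaling 6 rose and 2 fell, where 23.3% and 21.4% of all did.

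Of the 84 matching names that did not pass the filter, 22 were at 0 in every library and 12 reached an FPKM of 1 in at least 1 library. Ugt8, which makes the myelin lipid galactosylceramide, had means of 0.167 FPKM in control, 2.74 in COPD and 0.117 in WDD lungs, and its highest value was 4.61 in COPD 2. Cyp2b2 had means of 1.71, 0.0634 and 0.749 FPKM, the same order as its near copy Cyp2b1. Sult1b1, a thyroid hormone sulfotransferase, had means of 0.0247, 0.795 and 0.0474 FPKM. These genes were not tested with the others, and the 62 that were above 0 somewhere were fitted only without the filter.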

How the data were processed

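Total RNA was extracted with TRIzol and libraries were made from 1 ug with a NEBNext Ultra RNA kit, per the labels' protocols. Reads were trimmed with cutadapt, mapped to the rat build Rnor_6.0 with HISAT2 and then summarised by StringTie, per the submitters' processing notes; the sources used here give no versions, annotation release or strand use. The deposited values are FPKM computed by the authors, and read totals were not analysed here. Values were analysed as log2(FPKM + 1). The fit used limma 3.58.1 under R 4.3.3 (group means, eBayes, trend) on the 13172 genes that reached an FPKM of 1 in 5 or more libraries, two-sided, with Benjamini-Hochberg adjustment over all of them and calls at an adjusted p under 0.05. The script was tested on simulated data. Tables and figures used Python 3.11.15, numpy 2.4.6, pandas 2.3.3 and matplotlib 3.10.9.

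The enzyme genes, the gene lists and the P450 roles were chosen with earlier results of these data known. Named genes are the 6 most abundant of Cyp and Gst and 3 of each other family, up to 6 per direction and comparison with the largest change without overlap between groups, and 4 of lowest p per pathway list; others were added where a count of 5 or fewer, a role or a library that stands apart called for it. Alternatives were other pseudocounts, filters, scalings and variance models, only the 2 groups compared, a replicate block, and each library left out; leaving out COPD 1 and COPD 5 together and averaging WDD 4 and WDD 5 were added after seeing the data. Of 15 pairs of libraries with the same number in different groups, 1 had a correlation of deviations above 0.1. Pairs with different numbers were not compared with these, so the check cannot exclude that the numbers pair the libraries. The labels do not tie the numbers to a litter, cage or batch. The values of 1 enzyme gene are not reported here; it is counted in the totals and family sums.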

Additional observations from a re-analysis of the deposited data

Results flagged for a closer look

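Within groups of 5, on log2 values, 10 of 141 gene and group combinations had 1 library farther from the rest than Dixon's test allows; chance alone gives about 1 in 20. COPD 5 accounted for 5 of them: Cyp27a1 at 96.8 FPKM against 8.40 to 15.5 in the other COPD libraries, Cyp2a1 at 4.71 against 0 to 0.61, Cyp46a1 at 1.47 against 0.363 to 0.503, Fmo6 at 0.635 against 0 to 0.089, and Cyp2u1, the one low value, at 0.253 against 1.08 to 1.19. Control 1 was low for 2 genes, with Fmo2 at 580.3 FPKM against 970.0 to 997 in the other controls and Cyp4b1 at 241 against 324 to 335. Its long-minus-short measure of -2.71 was the lowest of the controls. WDD 3 was high for Cyp46a1, at 2.15 FPKM against 1.46 to 1.61, and low for Fmo1, at 139 against 161 to 169. Gstt2 in COPD 2 stood at 1.55 FPKM against 0.74 to 0.912.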

How the results depend on the processing

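The counts of enzyme genes lower in COPD (41) and higher in WDD against COPD (41) stayed within 1.5 times under every alternative run. Their share of the genes tested did not. Without the filter 55 of 110 matching names were lower in COPD, where 10073 of 18300 tested genes were. The medians were then -0.18 for the matching names and -0.49 for all genes. In WDD against COPD 52 of 110 were higher, where 7885 of 18300 were. Without the filter the matching names thus did not fall more often than all genes. Smaller counts moved. Genes higher in COPD (3) came to 6 without the filter, 6 with median-of-ratios scaling and 5 without COPD 1 and COPD 5, and to 2 to 4 with each library left out. Genes lower in WDD against COPD (2) came to 7, 5 and 5 in the same order, and to 4 with quantile normalisation. Genes higher in WDD against control (1) came to 2 without the filter, 9 with median-of-ratios scaling, 6 with quantile normalisation, 8 with only those 2 groups fitted, 0 when a log2 fold change of 1 was also required, 5 without COPD 1 and COPD 5, and 0 to 2 with each library left out (0 without control 2, control 5 or WDD 2, and 2 without COPD 1 or COPD 5). Genes lower in WDD against control (6) came to 3 with a pseudocount of 0.1, 3 with a mean FPKM of at least 5, 1 with median-of-ratios scaling, 3 with quantile normalisation, 0 when a log2 fold change of 1 was required, and 4 to 6 with each library left out. The cause was not tested, other than fewer or more genes tested by a filter. The replicate block left all 6 counts as they were (41 lower and 3 higher in COPD) and changed no call.

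Signs turned for these genes. In COPD against control, median-of-ratios scaling gave Cyp27a1 0.72, Fmo5 0.28, Gstp1 0.70, Gstm1 0.05 and Mgst2 0.16. Quantile normalisation gave Cyp46a1 0.28, Cyp39a1 0.01, Cyp27a1 0.44, Fmo5 0.43, Cyp2j4 0.09 and Cyp2j10 0.20, and the FPKM sum without mitochondrial genes gave Cyp27a1 0.02. In WDD against COPD, median-of-ratios scaling gave Mgst1 -0.57, Cyp27a1 -0.19 and Gsto1 -0.47, quantile normalisation gave Mgst1 -0.10, Gsto1 -0.26 and Cyp2j10 -0.11, and the sum without mitochondrial genes gave Mgst1 -0.28 and Gsto1 -0.19. Without COPD 1 and COPD 5, Gstp1 stood at 0.17 in COPD, and Mgst1 at -0.43 and Gsto1 at -0.36 in WDD against COPD. With each library left out in turn, Cyp27a1 ranged from -0.74 to 0.10, Gstp1 from -0.46 to 0.01 and Mgst1 from -0.00 to 0.41 in COPD against control, and Mgst1 from -0.15 to 0.26, Gsto1 from -0.06 to 0.33 and Fmo5 from -0.10 to 0.04 in WDD against COPD. None of these values was tested for its cause.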
